A study of Mus musculus with 2 samples.

Results

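Ventricular wall tanycytes of the mouse arcuate nucleus and median eminence were 134 of 3889 used cells in a Drop-seq comparison of Irx3/5dHet with WT mice, 30 of 1484 in the Irx3/5dHet library and 104 of 2405 in the WT library. A used cell had at least 300 genes and at most 20% of its unique molecular identifiers (UMIs, each standing for 1 captured transcript) in mitochondrial genes. A cell was counted as a wall tanycyte if it held at least 1 UMI of at least 3 of 8 wall genes (Prss56, Crym, Pdzph1, Frzb, Rax, Gpr50, Tmem52 and Col23a1) and of more of these than of 8 median eminence tanycyte genes (Scn7a, Col25a1, Adm, Fndc3c1, Fbln5, Cysltr1, Cldn10 and A2m). These 16 genes chose the cells, so their levels are described here without a test.

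Drop-seq pairs each cell with a barcoded bead in a droplet and sequences transcripts from their 3′ ends. The Irx3/5dHet library pooled tissue of 5 mice labelled Irx3/5+/-, heterozygous at the Iroquois homeobox genes Irx3 and Irx5, and the WT library pooled tissue of 7 wildtype mice. All mice were of the CD-1 strain and 7 to 8 weeks old, and the alleles are described no further in the sources used here. Live cells were sorted before capture, and nothing ties a cell to 1 mouse, so each genotype is 1 library and no difference between the genotypes has a replicate check.

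Tanycytes are radial glia-like cells that line the floor and lower wall of the third ventricle and send a long process into the hypothalamus. Alpha tanycytes and beta1 tanycytes lie along the ventricle wall beside the dorsomedial, ventromedial and arcuate nuclei, and beta2 tanycytes lie in the median eminence, where they touch fenestrated capillaries. They are known for sensing glucose, for transporting and activating thyroid hormone, for handling retinoids, and, in mice, for acting as neural progenitors after birth.

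The Irx3/5dHet library held 1800 barcodes with 2974060 UMIs and the WT library held 2800 barcodes with 4426817 UMIs. After the filters, 2862026 UMIs were left in the Irx3/5dHet library and 4282490 in the WT library. Wall tanycytes carried 50448 UMIs in the Irx3/5dHet library, with a median of 1592.5 per cell (650 to 6019), and 223308 UMIs in the WT library, with a median of 2055 (390 to 5591). The Irx3/5dHet library thus gave 22.4% of the cells and 18.4% of their UMIs. The libraries shared 3 barcodes, none of them in a wall tanycyte. Levels are CPM, the usual scaling to library size, of the summed UMIs of a cell set in 1 library, log2 ratios are Irx3/5dHet over WT unless another pair is named, and each interval is exact, at 95%, and covers nothing but counting error.

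Irx3 and Irx5 were barely read in these cells. Irx3 had 1 UMI in Irx3/5dHet and 1 UMI in WT wall tanycytes, and Irx5 had 0 in both. The count of 0 for Irx5 allows levels of up to 73.1 CPM in Irx3/5dHet and 16.5 CPM in WT cells (exact upper bounds). Ependymal cells, chosen by their own markers, held more of both, with 5 Irx3 UMIs (44.2 CPM) in Irx3/5dHet and 17 (65.3 CPM) in WT cells, and 4 and 7 Irx5 UMIs. Which part of either gene was deleted is not stated in the sources used here, and 3′ tags outside a deletion count both alleles, so the genotype labels are not checked by these values.

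The number of wall genes found per cell was low in both libraries. Exactly 3 of the 8 genes were found in 18 Irx3/5dHet and 53 WT members, 4 in 8 and 38, 5 in 4 and 9, 6 in 0 and 2, and 7 in 0 and 2. Just outside the rule stood 104 cells with 2 wall genes, 32 of Irx3/5dHet and 72 of WT. A further 9 Irx3/5dHet and 23 WT cells had at least 3 wall genes but no more of them than of eminence genes. From the cells with 2 genes through those with 3 to those with at least 4, median UMIs per cell were 1308, 1652 and 2054, Rax had 261, 331 and 412 CPM and Crym 339, 572 and 788 CPM. Slc1a3, a glial glutamate transporter outside the rule, had 847, 813 and 766.5 CPM over the same steps, and the neuronal synapse gene Snap25 had 65.2, 22.6 and 21.3 CPM.

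Crym, which encodes a thyroid hormone-binding crystallin (ENSMUSG00000030905, chromosome 7 from 120186380 to 120202111, minus strand, build GRCm38), was found in 80% of Irx3/5dHet and 64.4% of WT members. It had 932 CPM (47 UMIs) in Irx3/5dHet and 627 CPM (140 UMIs) in WT members, a log2 ratio of 0.57. Prss56, a serine protease gene (ENSMUSG00000036480, chromosome 1 from 87183313 to 87188405, plus strand), had 26 UMIs, or 515 CPM, in Irx3/5dHet and 40 UMIs, or 179 CPM, in WT members. Its log2 ratio was 1.52, the only 1 of the 8 past 2-fold. Prss56 was found in 9 of 30 Irx3/5dHet and 17 of 104 WT members, and in no eminence tanycyte of either library.

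The other wall genes differed less between the libraries. Pdzph1, named for its PDZ and PH domains, had 396 CPM in Irx3/5dHet and 242 CPM in WT members (log2 ratio 0.71), and Frzb, a secreted Wnt antagonist, had 416 and 349 CPM in the same order (0.25). Tmem52, a transmembrane protein gene, had 12 UMIs in Irx3/5dHet and 29 in WT members (0.87). Rax, the homeobox gene of tanycytes and the developing eye, had 317 CPM in Irx3/5dHet and 385 CPM in WT members (-0.28). Gpr50, an orphan receptor related to the melatonin receptors, had 396 CPM in Irx3/5dHet and 421 CPM in WT members. Col23a1, a transmembrane collagen gene, had 654 and 707.5 CPM in wall tanycytes but 1111 and 1236 CPM in eminence tanycytes, Irx3/5dHet first in each pair, so by itself it did not set wall tanycytes apart.

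**Figure D1:**
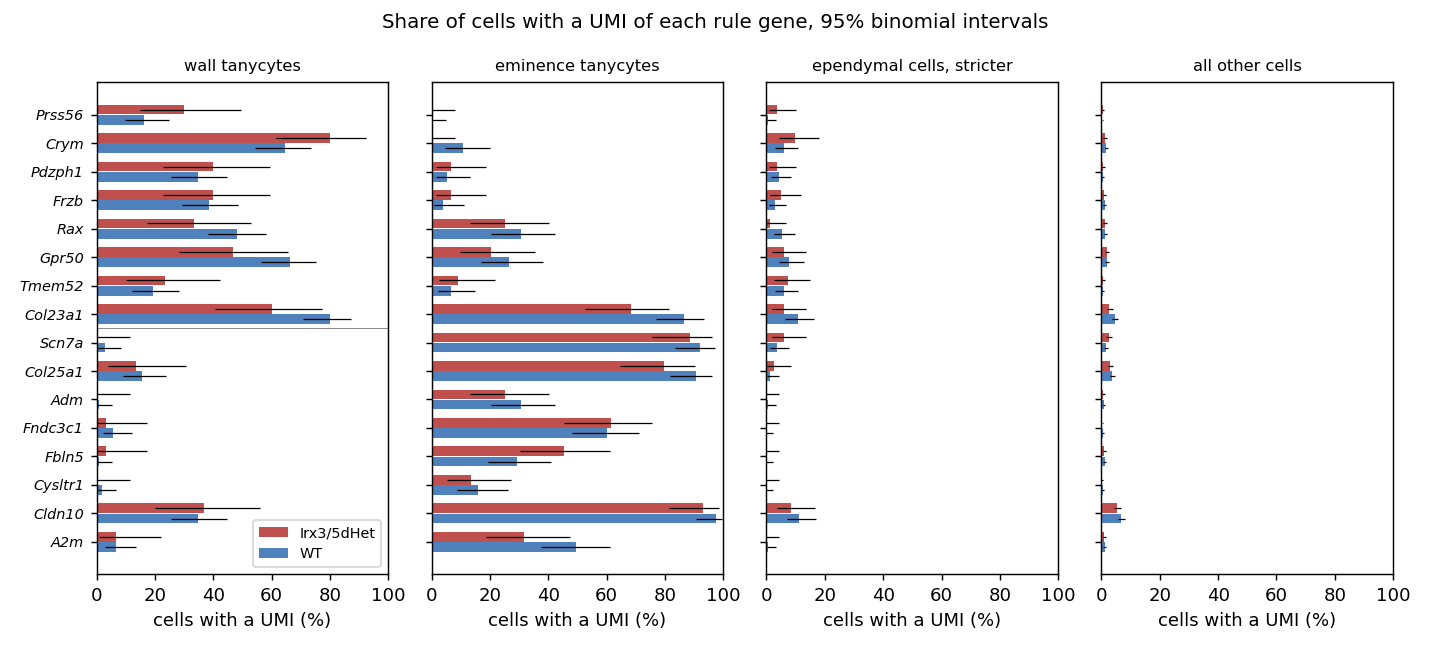
Share of cells with a UMI of each of the 16 rule genes (horizontal axis, percent of cells; genes down the page, the 8 wall genes above the line) in wall tanycytes, eminence tanycytes, ependymal cells and all other cells, with red bars for Irx3/5dHet, blue bars for WT and lines for exact 95% binomial intervals. All other cells leave out all 442 cells with at least 3 ependymal markers. Crym stands at 80% of Irx3/5dHet and 64.4% of WT wall tanycytes, and Col23a1 and Cldn10 are the wall and eminence genes most shared between both tanycyte sets.

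The wall genes were not all found in the same cells. Crym and Col23a1 shared 62 members, while Pdzph1, found in 48 members, and Frzb, found in 52, shared 8. The eminence genes were low but not missing in wall tanycytes. Scn7a, a sodium channel gene, had 0 UMIs in Irx3/5dHet and 8 in WT wall tanycytes, against 2883 and 1626 CPM in eminence tanycytes. Cldn10, a claudin gene of tight junctions, had 377 CPM in Irx3/5dHet and 385 CPM in WT wall tanycytes, and 2683 and 3246 CPM in eminence tanycytes. No eminence gene was found in 72 of the 134 members, 16 of Irx3/5dHet and 56 of WT.

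The label was checked against markers of the neighbouring cell types. Of the 134 wall tanycytes, 112 (83.6%) carried at least 3 of 12 ependymal markers, 24 of 30 in Irx3/5dHet and 88 of 104 in WT, against 20 of 119 eminence tanycytes (16.8%). At least 6 ependymal markers were found in 43 members, 8 of Irx3/5dHet and 35 of WT. The markers were at intermediate levels. Foxj1, the master regulator of motile cilia, had 218 CPM in Irx3/5dHet and 215 CPM in WT wall tanycytes, 74.9 and 25.6 CPM in eminence tanycytes, and 698 and 771.5 CPM in ependymal cells. Ccdc153, a gene of ciliated cells, had 59.5 and 35.8 CPM in wall tanycytes against 2041 and 1934 CPM in ependymal cells. The sum of all 12 markers was 6561 CPM in Irx3/5dHet and 5419 CPM in WT wall tanycytes, 1572 and 1785 CPM in eminence tanycytes and 18158 and 16512 CPM in ependymal cells. Most members thus carried the wall genes together with ependymal transcripts at a level between those of eminence tanycytes and ependymal cells. Ependymal cells in these comparisons, 251 in all, had at least 5 of the 12 markers, under 3 neuron markers, under 3 wall and under 3 eminence genes, a set chosen after the data were seen because 71 of the 442 cells with at least 3 ependymal markers also held at least 3 neuron markers.

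Markers of other classes were few in wall tanycytes. Neuron markers summed to 1051 CPM in Irx3/5dHet and 2078 CPM in WT members, against 3769 and 3805 CPM in eminence tanycytes. Most of each sum was the noncoding RNA Meg3, with 595 and 1773 CPM in members and 3544 and 3400 CPM in eminence tanycytes. At 0 were 5 of the 12 in Irx3/5dHet and 2 of 12 in WT members. Microglial markers summed to 39.6 CPM in Irx3/5dHet and 188 CPM in WT members, and oligodendrocyte markers to 297 and 497 CPM. Fibroblast markers summed to 1189 CPM in Irx3/5dHet and 71.7 CPM in WT members, and 1 Irx3/5dHet cell held most of them. At least 3 markers of a class other than ependymal cells and astrocytes were found in 13 members (9.70%), 7 of which had at least 3 neuron markers, and no doublet caller was run.

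Wall tanycytes made up a smaller share of the Irx3/5dHet library. They were 2.02% (1.37 to 2.87) of used Irx3/5dHet cells and 4.32% (3.55 to 5.22) of used WT cells, a ratio of 0.467 (0.301 to 0.708). Eminence tanycytes, chosen by the mirrored rule, were 2.96% (2.16 to 3.96) of Irx3/5dHet and 3.12% (2.46 to 3.89) of WT cells, a ratio of 0.951 (0.640 to 1.40). Ependymal cells gave a ratio of 0.801 (0.608 to 1.05), with 83 Irx3/5dHet and 168 WT cells. Per eminence tanycyte there were 0.682 wall tanycytes in the Irx3/5dHet library and 1.39 in the WT library, a ratio of 0.492 (0.316 to 0.744).

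The share depends on depth, since a shallow cell shows fewer wall genes. With every cell thinned to 1000 UMIs and shallower cells left out, 11 of 846 Irx3/5dHet and 46 of 1465 WT cells met the rule, a ratio of 0.414, and 0.442 in another random draw. Neurons were a larger part of the Irx3/5dHet library, and among cells other than neurons the ratio was 0.557 (0.352 to 0.855). Across the settings tried the ratio ranged from 0.381, with at least 4 wall genes, to 0.571, with at least 2, and it stayed under 1 in each of them. Dissection and the sort for live cells can set such shares too, and their part was not tested.

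**Figure D2:**
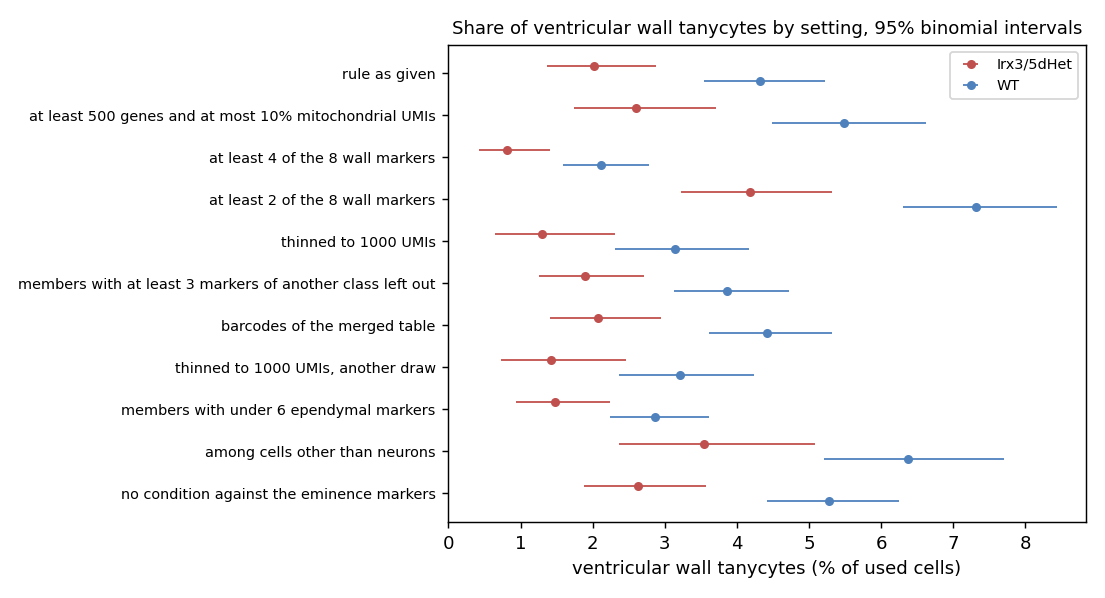
Share of wall tanycytes among used cells (horizontal axis, percent) under the rule as given and 10 other settings down the page, with red points for Irx3/5dHet, blue points for WT and lines for exact 95% binomial intervals. The Irx3/5dHet share lies left of the WT share in every setting, at 2.02% and 4.32% under the rule as given.

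Against eminence tanycytes, wall tanycytes were higher in ependymal markers and in Slc1a2, and lower in eminence markers and in growth factor genes such as Igfbp5. Each library was compared by itself, and a gene was called where it was past 2-fold the same way in both. Of 1308 genes with at least 20 UMIs over both cell sets in each library, 70 (5.35%) were higher and 87 (6.65%) lower in wall tanycytes. Since the rule divides these cells by 16 genes of the same contrast, the values below are a description.

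Fam183b, a gene of ciliated cells, had 1130 CPM in wall and 62.4 CPM in eminence tanycytes of the Irx3/5dHet library, and 819.5 and 61.5 CPM in the WT library, log2 ratios of 4.18 and 3.73. Cfap45, an axoneme gene, had 733 CPM in wall and 24.96 CPM in eminence tanycytes of Irx3/5dHet, and 273 and 25.6 CPM in WT. Cfap126, Dynlrb2, Rsph1, Nme5 and Tppp3, also genes of cilia or microtubules, were higher in both libraries by log2 ratios of 2.48 to 4.84. Of the 6 ependymal markers measured here, 5 were higher in wall tanycytes and 0 lower, and 112 of the 134 wall tanycytes held at least 3 of the 12. The part of ependymal transcripts in these ratios was not tested.

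Slc1a2, the glutamate transporter GLT-1 of astrocytes, had 40 UMIs in wall and 0 in eminence tanycytes of Irx3/5dHet, and 394 CPM against 51.3 CPM in WT. S100a6, a calcium-binding protein gene, had 1725 CPM in wall and 137 CPM in eminence tanycytes of Irx3/5dHet and 1930 and 185 CPM in WT. The chaperone gene Clu had 634 CPM in wall and 49.9 CPM in eminence tanycytes of Irx3/5dHet, and 604.5 and 92.3 CPM in WT. Cpe, carboxypeptidase E, which trims peptide hormones, was higher by 2.79 in Irx3/5dHet and 2.66 in WT, both log2 ratios. Of 15 tanycyte radial glia genes measured, Slc1a2 was in the group past 2-fold higher and the rest were not past 2-fold in both libraries. None of 30 nuclear genes of oxidative phosphorylation was past 2-fold either way in both libraries.

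Among the lower genes, Igfbp5, an insulin-like growth factor binding protein, had 357 CPM in wall and 2309 CPM in eminence tanycytes of Irx3/5dHet, and 228 and 2041 CPM in WT. Hbegf, an EGF family growth factor, had 59.5 CPM in wall and 699 CPM in eminence tanycytes of Irx3/5dHet, and 31.4 and 456 CPM in WT. Gpc3, a glypican that binds growth factors at the cell surface, was lower by log2 ratios of -4.17 in Irx3/5dHet and -2.29 in WT. The growth factor list had 4 of 6 measured genes lower and the transcription factor list 3 of 8, where 6.65% of all genes were.

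The imprinted gene Mest had log2 ratios of -3.64 in Irx3/5dHet and -2.48 in WT, and Fstl1, a secreted glycoprotein gene, of -3.89 and -2.45. The inducible transcription factor genes Cebpb, Cebpd and Klf6 were lower as well. Cebpd had 19.8 CPM in wall and 512 CPM in eminence tanycytes of Irx3/5dHet, and 282 and 1087 CPM in WT. Lrat, which esterifies retinol for storage, had 59.5 CPM in wall and 512 CPM in eminence tanycytes of Irx3/5dHet, and 53.7 and 226 CPM in WT, which places this retinoid enzyme mainly in the eminence. Rgcc and Gadd45b had 0 UMIs in Irx3/5dHet wall tanycytes, with 51 and 30 in eminence tanycytes.

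**Figure D3:**
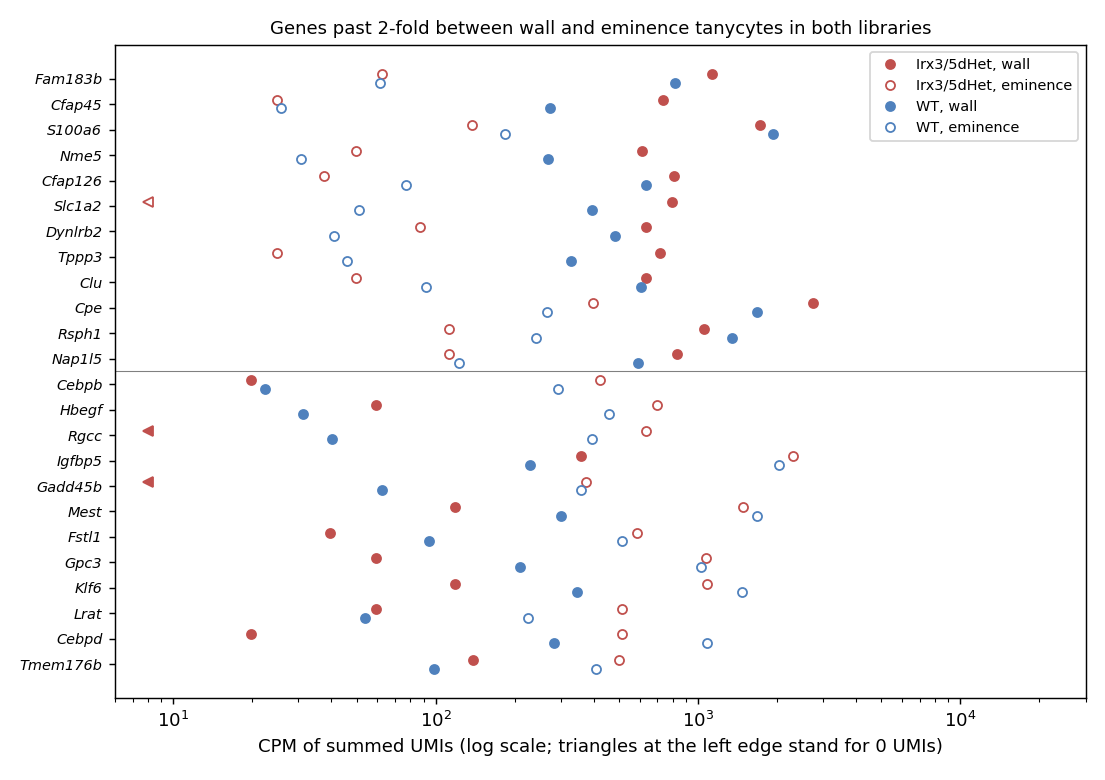
Level (horizontal axis, CPM of summed UMIs, log scale) of the 12 genes highest and the 12 lowest in wall over eminence tanycytes, with filled symbols for wall and open symbols for eminence tanycytes, red for Irx3/5dHet and blue for WT, and triangles at the left edge for 0 UMIs. In the upper block, filled symbols lie right of open ones in both libraries, as for Fam183b at 1130 against 62.4 CPM in Irx3/5dHet, and in the lower block they lie left of them.

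Against ependymal cells, wall tanycytes were higher in Ptn, Aldoc, Thrsp and a few immediate early genes and lower in ependymal markers. Of 1699 genes measured, 47 (2.77%) were higher and 177 (10.4%) lower in both libraries. The 47 include 7 wall genes and 1 eminence gene, which the rules for both cell sets used. Ptn, the growth factor pleiotrophin, had 5233 CPM in wall tanycytes and 1175 CPM in ependymal cells of Irx3/5dHet, and 6999 and 1332 CPM in WT. Aldoc, the brain form of the glycolytic enzyme aldolase, had 1645 CPM in wall tanycytes and 371 CPM in ependymal cells of Irx3/5dHet, and 1832 and 361 CPM in WT. Thrsp, a thyroid hormone-responsive gene of lipid synthesis, had log2 ratios of 2.53 in Irx3/5dHet and 1.85 in WT, and Basp1, a membrane protein gene, of 1.81 and 1.82. Of 10 immediate early genes measured, 3 were higher, among them Egr1 with log2 ratios of 1.29 and 1.27, and 0 lower.

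Among the lower genes, Tmem212, a gene of ciliated cells, had log2 ratios of -4.20 in Irx3/5dHet and -3.71 in WT, and S100b, a calcium-binding protein gene of ependyma and astrocytes, of -3.59 and -3.54. Hdc, which makes histamine, had 2 UMIs in wall tanycytes and 51 in ependymal cells of Irx3/5dHet, and 4 and 118 in WT. Stoml3 had 0 UMIs in wall tanycytes of either library against 33 and 97 in ependymal cells. Of the 12 ependymal markers, 8 were lower and 0 higher, but these markers also chose the ependymal cells. Over all 442 cells with at least 3 ependymal markers, 66 of 3185 genes (2.07%) were higher and 222 (6.97%) lower in wall tanycytes, and the neuron genes Nrsn1, Tagln3 and Npy were among the 12 lowest named. The 66 include 8 wall genes and 1 eminence gene of the rules.

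A far wider mix was left after eminence tanycytes and the 442 cells with at least 3 ependymal markers were also taken out. Against it, 658 of 11851 genes (5.55%) were higher and 2494 (21%) lower in wall tanycytes of both libraries. All 10 ependymal markers measured there were higher, but cells rich in these markers had been left out.

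The alpha and beta1 ends of the wall were looked for by splitting the members at Frzb and Pdzph1, a division chosen after their values were seen. A UMI of Frzb without Pdzph1 was found in 44 members, 9 of Irx3/5dHet and 35 of WT, and a UMI of Pdzph1 without Frzb in 40, 9 of Irx3/5dHet and 31 of WT. Both genes were found in 8 members and neither in 42. Median UMIs per cell were 2146 in the Frzb cells and 1635 in the Pdzph1 cells. Of 1834 genes measured, 134 (7.31%) were at least 2-fold higher and 115 (6.27%) at least 2-fold lower in Frzb over Pdzph1 cells.

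The Frzb cells were higher in genes of the beta1 list. Fgf10, a growth factor that marks beta tanycytes, had 36 UMIs in Frzb cells and 9 in Pdzph1 cells, a log2 ratio of 1.61 (0.53 to 2.85). Penk, the enkephalin precursor, had 21 UMIs in Frzb and 2 in Pdzph1 cells (3.005, 0.97 to 6.14). All 4 measured genes of the list, with Dio2 and Tgfb2, were past 2-fold higher in Frzb cells, where 7.31% of all genes were, with a median of 1.61 against -0.01 over all genes. Of the 4 intervals 2 lay above 0, while Dio2, with 25 and 9 UMIs (1.09, -0.06 to 2.37), and Tgfb2, with 16 and 4 (1.61, -0.02 to 3.65), had intervals that included 0. These 4 genes were not particular to wall tanycytes. Over all members, Dio2 had 337 CPM in Irx3/5dHet and 157 CPM in WT, against 649 and 764 CPM in eminence tanycytes. In the same order, Fgf10 had 178 and 251 against 262 and 128 CPM. Penk had 139 and 103 against 137 and 118 CPM, and Tgfb2 39.6 and 134 against 225 and 76.9 CPM. Levels of alpha genes across this split are not given here. Dlk1, a Notch ligand-like protein gene, had 43 UMIs in Frzb cells and 0 in Pdzph1 cells, 42 of them in the WT library, and lay in 6 cells in all.

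The Pdzph1 cells were higher in other genes. Sfrp1, another secreted Wnt antagonist, had 4 UMIs in Frzb and 18 in Pdzph1 cells (log2 ratio -2.56, -4.58 to -0.96). Slc1a2 had 32 UMIs in Frzb and 45 in Pdzph1 cells (-0.88, -1.58 to -0.19), and Vim, the intermediate filament gene of radial glia, had 63 and 73 (-0.60, -1.11 to -0.09). Igfbp5 had 16 UMIs in Frzb and 34 in Pdzph1 cells, with 1 against 16 in Irx3/5dHet and 15 against 18 in WT, and 1 cell held 12 of these UMIs. Rax, with 18 UMIs in Frzb and 40 in Pdzph1 cells, is a rule gene, and the rule shapes which wall genes occur together in a member, so nothing is read from its levels here.

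The same split divided the immediate early genes, of which 15 of 16 measured were above 0 in Frzb over Pdzph1 cells, as were 904 of all 1834 genes, and 10 past 2-fold higher, against 7.31% of all genes. Fos had 746 UMIs in Frzb and 312 in Pdzph1 cells (log2 ratio 0.87, 0.68 to 1.07). Frzb cells were also the deeper ones, and the part of depth in this was not tested. The Notch target Hes1 had 257 UMIs in Frzb and 100 in Pdzph1 cells (0.97, 0.64 to 1.32). Genes of oxidative phosphorylation had a median of -0.04 over 30 measured, with 0 past 2-fold higher and 1 lower.

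**Figure D4:**
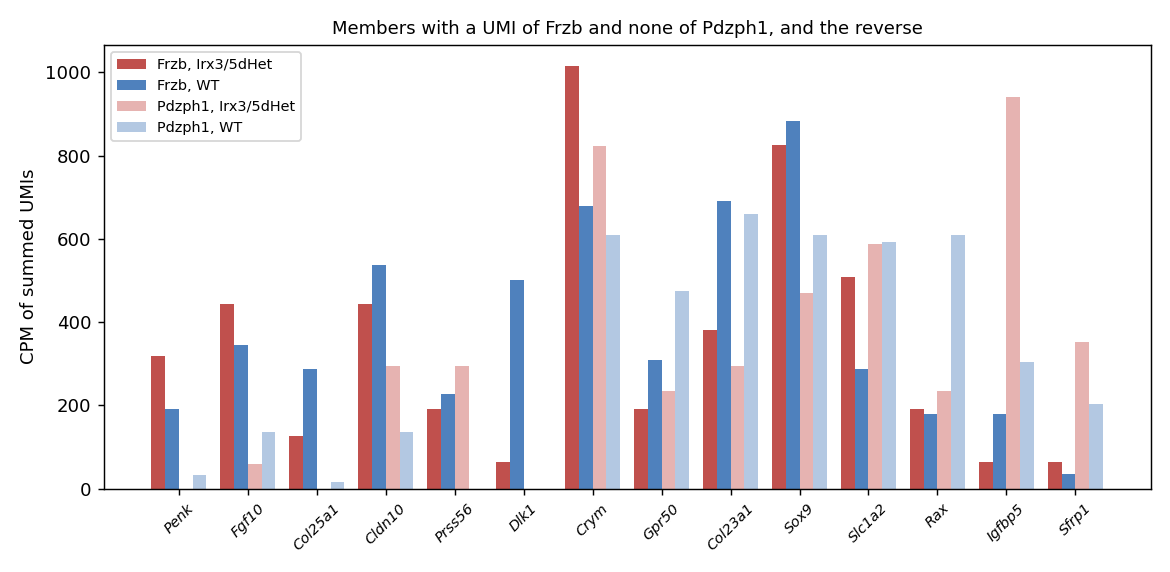
Level (vertical axis, CPM of summed UMIs) of 14 genes in members with a UMI of Frzb and none of Pdzph1 (dark bars) and in members with a UMI of Pdzph1 and none of Frzb (light bars), red for Irx3/5dHet and blue for WT. Penk and Fgf10 stand higher in Frzb cells of both libraries, while Sfrp1 stands higher in Pdzph1 cells, at 353 against 63.5 CPM in Irx3/5dHet and 203 against 35.8 CPM in WT.

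Between the genotypes, wall tanycytes of the Irx3/5dHet library had more genes past 2-fold lower than higher. Of 2904 genes with at least 20 UMIs in the members of both libraries together, 185 (6.37%) were at least 2-fold higher and 428 (14.7%) at least 2-fold lower in Irx3/5dHet. With median of ratios size factors in place of total UMIs these were 92 higher and 587 lower, and the median of all genes was -0.28 in place of -0.00. Of the lower genes, 107 had names of predicted genes or pseudogenes, against 5 of the higher. Genes with such names were 266 of the 2904 measured, 207 of them below 0, with a median of -0.72. All other used cells had 459 of 16445 genes (2.79%) higher and 1809 (11%) lower, eminence tanycytes 7.02% higher and 10.3% lower, and ependymal cells 4.55% higher and 9.47% lower. The interval lay above 0 for 175 genes (6.03%) and below 0 for 151 (5.2%).

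Ranked by size, Sparcl1, a secreted matrix protein gene of glia, came first among the higher genes, with 31 UMIs (614.5 CPM) in Irx3/5dHet and 28 UMIs (125 CPM) in WT wall tanycytes. Its log2 ratio was 2.29 (1.51 to 3.08) in wall tanycytes and -0.02 in all other used cells. Among these, ependymal cells had 0.40, with 166 Irx3/5dHet and 290 WT UMIs, and eminence tanycytes had 1 and 3 UMIs. Clec3b, the plasminogen-binding protein tetranectin, had 24 UMIs in Irx3/5dHet and 25 in WT members, a log2 ratio of 2.09 (1.22 to 2.95), and was also higher in all other used cells, by 1.61. Gpx4, which protects membranes from lipid peroxidation, had 23 UMIs in Irx3/5dHet and 24 in WT members (2.08, 1.19 to 2.97), and 0.97 in all other used cells.

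Slc6a11, the GABA transporter of astrocytes, had 13 UMIs in Irx3/5dHet and 19 in WT members (1.60, 0.46 to 2.69), and -0.43 in all other used cells. Ependymal cells went the same way as the members, with 12 and 17 UMIs (0.70), and eminence tanycytes had 0 and 2 UMIs. The other 8 named by the rule were Tpm3, Glg1, B9d1, Bag1, Pdzd11, H2afy, Elmod1 and Iscu, with 13 to 24 UMIs in Irx3/5dHet, 19 to 34 UMIs in WT members and log2 ratios of 1.60 to 1.73. B9d1 is a gene of the ciliary transition zone and Iscu a scaffold of iron-sulfur cluster assembly.

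The genes at the lower end rested on 1 or 0 Irx3/5dHet UMIs each. Hspb1, a small heat shock protein gene, had 1 UMI (19.8 CPM) in Irx3/5dHet and 69 UMIs (309 CPM) in WT wall tanycytes, a log2 ratio of -3.96 (-9.29 to -1.44). It was also lower in eminence tanycytes, with 15 and 142 UMIs (-1.96), and in ependymal cells, with 9 and 38 (-0.87). Tubb5, a beta tubulin gene, had 0 UMIs in Irx3/5dHet and 34 in WT members, at least 2.56-fold lower against a floor of 3 counts in the Irx3/5dHet library. Bhlhe40, a repressor of the circadian and activity response, had 1 and 31 UMIs (-2.81, -8.16 to -0.22), and Rgs2, a regulator of G protein signalling, 1 and 33 (-2.90, -8.24 to -0.32). AC163623.1, Arap2, Dnajb4, Gtpbp4, Prkcdbp, Ppil4, Gng12 and Glyr1 had 1 UMI each in Irx3/5dHet and 29 to 40 in WT members, and every upper bound of these log2 ratios lay below 0. Prkcdbp turned to 0.13 when cells with 2 wall genes were added.

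Immediate early genes, which cells transcribe within minutes of a stimulus, were the list with the lowest median in Irx3/5dHet wall tanycytes among the 12 lists with at least 5 measured genes, lists of cell type markers aside. Of 16 measured, 15 were below 0, as were 50.4% of all genes, and 1 was above, with 10 past 2-fold lower and 0 higher, where 14.7% of all genes were past 2-fold lower. Their median log2 ratio was -1.15, or -1.42 with median of ratios size factors. The interval lay below 0 for 11 of them, against 5.2% of all genes.

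Fos had 183 UMIs (3628 CPM) in Irx3/5dHet and 1466 UMIs (6565 CPM) in WT wall tanycytes, a log2 ratio of -0.86 (-1.09 to -0.63). A UMI of Fos was found in 12 of 30 Irx3/5dHet cells (40%, 22.7 to 59.4) and 79 of 104 WT cells (76%, 66.6 to 83.8). With cells thinned to 1000 UMIs these were 8 of 20 and 65 of 94. Fewer Irx3/5dHet cells thus held Fos at matched depth, and the intervals of the thinned shares, 19.1 to 63.9% and 58.8 to 78.3%, overlapped.

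Egr1, a zinc finger factor of the same response, had 714 CPM in Irx3/5dHet and 1599 CPM in WT members (-1.16). Junb, a partner of Fos, had 13 UMIs in Irx3/5dHet and 163 in WT members (-1.50), and Btg2, an antiproliferative gene, 14 and 178 (-1.52). Atf3, a stress-induced factor, had 6 UMIs in Irx3/5dHet and 124 in WT members (-2.22, -3.70 to -1.06), but 53 of the WT UMIs lay in 1 cell. Dusp1, a phosphatase that ends MAP kinase signals, had 9 and 89 UMIs (-1.16), and Zfp36, which destabilises inflammatory transcripts, 3 and 51 (-1.94). Jun had 1645 CPM in Irx3/5dHet and 1706 CPM in WT members (-0.05), and Klf4, with 6 and 19 UMIs (0.48), was the gene above 0.

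Summed over the 25 genes of the list, wall tanycytes had 8107 CPM (7341 to 8932) in Irx3/5dHet and 14984 CPM (14480.3 to 15500.3) in WT, a log2 ratio of -0.89 (-1.04 to -0.74). Cells varied widely, with a median per cell of 1297 CPM (0 to 46085) in Irx3/5dHet and 11981 CPM (0 to 55556) in WT, so the libraries overlapped over nearly their whole range. The log2 ratio of the sum was -0.41 in the Frzb cells, -2.01 in the Pdzph1 cells and -0.84 in the rest of the members. Medians per cell instead differed more in the Frzb cells, with 4094 CPM in 9 Irx3/5dHet and 17067.5 CPM in 35 WT cells. In the Pdzph1 cells they were 623 CPM in 9 Irx3/5dHet and 860 CPM in 31 WT cells. The log2 ratio of the sum was below 0 in ependymal cells, at -0.52, and in all other used cells, at -0.50. In eminence tanycytes the sum went the other way, at 0.30 (0.21 to 0.40), with Fos at 5653 CPM in Irx3/5dHet and 3072 CPM in WT. Their median per cell did not, at 12598.5 CPM in Irx3/5dHet and 13587 CPM in WT. The same 16 genes had a median of -0.54 and 1 past 2-fold lower in all other used cells (11% of all genes there), and a median of 0.17 in eminence tanycytes. In ependymal cells 15 of them were measured, with a median of -0.93, 7 past 2-fold lower (9.47% of all genes there) and 9 intervals below 0, and whether ependymal cells and wall tanycytes differ in this was not tested.

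Because these genes differed together, their RefSeq promoter windows in GRCm38.p6 were searched, each with 250 bases before and 50 bases after the gene's start. A window was found for 14 of the 16 measured genes, and Egr1 and Ier2 had none. A gene was counted once if any of its windows held the motif. The cyclic AMP response element TGACGTCA, which reads the same on both strands, was found for 2 of 14 genes (14.3%), Btg2 and Dusp1. Among all genes with a window it was found for 549 of 27025 (2.03%). The CArG box, the site of serum response factor, was searched on both strands. It was found for 1 of 14 genes (7.14%), Zfp36, and for 488 of 27025 (1.81%). The motifs did not overlap. A match is a description of these letters and not a site shown to be used. The 250 bases before the start are shown for these 3 genes, 5′ to 3′ on the gene's strand, with the motif in capitals, the response element in the first and second and the CArG box in the third.
Btg2, chr1:134079156-134079405, minus strand: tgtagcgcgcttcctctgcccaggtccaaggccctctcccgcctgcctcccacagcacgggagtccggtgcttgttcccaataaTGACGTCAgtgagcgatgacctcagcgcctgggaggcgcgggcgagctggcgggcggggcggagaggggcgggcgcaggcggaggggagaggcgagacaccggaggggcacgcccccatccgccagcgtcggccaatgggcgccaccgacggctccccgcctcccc
Dusp1, chr17:26508473-26508722, minus strand: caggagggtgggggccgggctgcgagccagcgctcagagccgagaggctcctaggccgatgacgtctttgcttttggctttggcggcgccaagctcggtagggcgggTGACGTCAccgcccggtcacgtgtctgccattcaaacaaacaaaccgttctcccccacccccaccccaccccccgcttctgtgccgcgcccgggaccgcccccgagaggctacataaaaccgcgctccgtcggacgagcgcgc
Zfp36, chr7:28379229-28379478, minus strand: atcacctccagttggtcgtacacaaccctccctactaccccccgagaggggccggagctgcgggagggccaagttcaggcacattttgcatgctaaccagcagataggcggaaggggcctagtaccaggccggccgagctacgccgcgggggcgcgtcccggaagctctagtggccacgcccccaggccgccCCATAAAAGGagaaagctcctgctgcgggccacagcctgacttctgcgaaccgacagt

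Hes1, a transcriptional repressor that Notch signalling induces (ENSMUSG00000022528, chromosome 16 from 30064384 to 30067796, plus strand), was also lower. It had 35 UMIs (694 CPM) in Irx3/5dHet and 492 UMIs (2203 CPM) in WT wall tanycytes, a log2 ratio of -1.67 (-2.21 to -1.17). A UMI of Hes1 was found in 15 of 30 Irx3/5dHet and 79 of 104 WT cells, and in 9 of 20 and 62 of 94 after thinning. Eminence tanycytes had 2184 CPM in Irx3/5dHet and 2682 CPM in WT (-0.30). The log2 ratio was -1.10 in ependymal cells, which had 433 CPM in Irx3/5dHet and 929 CPM in WT, and -0.72 in all other used cells. Hes1 was the only 1 of 20 Notch pathway genes with at least 20 UMIs, so nothing is read for the pathway. Heat shock genes went both ways, with 4 of 12 above 0 and 8 below and a median of -0.25. Hsp90aa1 had 164 UMIs in Irx3/5dHet and 487 in WT members (0.58), Hspa5, a chaperone of the endoplasmic reticulum, 66 and 182 (0.68), and Hspa1a 88 and 647 (-0.73).

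**Figure D5:**
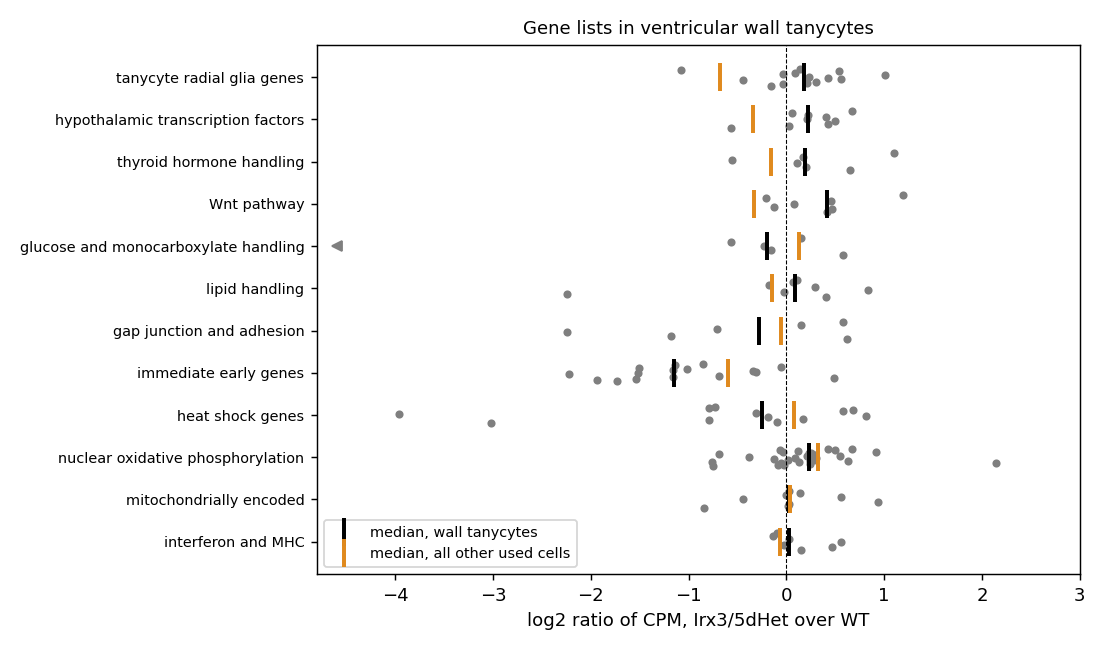
Log2 ratio of CPM, Irx3/5dHet over WT, in wall tanycytes (horizontal axis) for each gene with at least 20 UMIs (grey points; a triangle marks a gene with 0 Irx3/5dHet UMIs) of 12 gene lists down the page. Black bars give the list's median in wall tanycytes and orange bars its median over the list genes measured in all other used cells, and the immediate early genes stand lowest at -1.15.

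Radial glia genes, the structural and stem cell genes that tanycytes share with embryonic radial glia, went both ways. Of 14 measured, 9 were above 0, as were 49.6% of all genes, and 5 below, with 1 past 2-fold each way and a median of 0.18. That median was -0.10 with median of ratios size factors, which move all genes down, so no direction is given for the list. In all other used cells 22 of 23 were below 0, as were 9383 of all 16445 genes there, with a median of -0.68 for the list. Vim had 971 CPM in Irx3/5dHet and 882 CPM in WT wall tanycytes, Sox9, a glial transcription factor, 753 and 707.5 CPM, and the stem cell factor Sox2 496 and 340 CPM. Slc1a2 had 40 UMIs (793 CPM) in Irx3/5dHet and 88 UMIs (394 CPM) in WT members, a log2 ratio of 1.01 (0.43 to 1.56). Cd63, a tetraspanin of endosomes, had 75 and 248 UMIs (0.42, 0.03 to 0.80). The genes named here were all above 0, unlike the 5 of the list below 0. Nes, whose UMIs are given under the other observations, was lower in Irx3/5dHet wall tanycytes.

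Astrocyte markers measured in wall tanycytes, 4 of the 10 on the list, were all above 0, with 1 past 2-fold and 3 intervals above 0, where 6.03% of all genes had such an interval. Their median was 0.60, or 0.32 with median of ratios size factors, under which all 4 were above 0. Gja1, the gap junction protein connexin 43 that couples tanycytes and astrocytes, had 1229 CPM (62 UMIs) in Irx3/5dHet and 824 CPM (184 UMIs) in WT members, a log2 ratio of 0.58 (0.14 to 0.999). Mlc1, a membrane protein of perivascular astrocyte endfeet, had 59 and 177 UMIs (0.56), and Aqp4, the astrocyte water channel, a log2 ratio of 0.62. Summed astrocyte markers were 3092 CPM in Irx3/5dHet and 1944 CPM in WT members, and 15 of 30 Irx3/5dHet and 26 of 104 WT members held at least 3 of the 10. Many of these genes are also made by tanycytes, and the part of astrocyte transcripts in the higher levels of Slc1a2, Slc6a11 and Gja1 was not tested.

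Ependymal markers were above 0 in 9 of 11 measured, as were 49.6% of all genes, with 2 past 2-fold higher, where 6.37% of all genes were. Their median was 0.32, but with median of ratios size factors it was 0.05 and 6 of the 11 were above 0, so no direction is given for the list. Rarres2, the chemokine-like chemerin, had 42 UMIs (832.5 CPM) in Irx3/5dHet and 72 UMIs (322 CPM) in WT wall tanycytes, a log2 ratio of 1.37 (0.78 to 1.94). Meig1, a gene of ciliated and germ cells, had 13 and 22 UMIs (1.39, 0.28 to 2.44). Foxj1, the regulator of motile cilia, stood at 218 CPM in Irx3/5dHet and 215 CPM in WT members.

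Of 6 thyroid hormone genes measured, 5 were above 0, as were 49.6% of all genes, 1 past 2-fold higher and 0 lower, with a median of 0.19, or -0.09 with median of ratios size factors. Dio2, the deiodinase that converts thyroxine to active triiodothyronine, had 17 UMIs (337 CPM) in Irx3/5dHet and 35 UMIs (157 CPM) in WT wall tanycytes, a log2 ratio of 1.10 (0.18 to 1.98). It was found in 9 of 30 Irx3/5dHet and 20 of 104 WT cells. Eminence tanycytes had more of it, 649 CPM in Irx3/5dHet and 764 CPM in WT. The receptor gene Thra had 337 CPM in Irx3/5dHet and 313.5 CPM in WT wall tanycytes.

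Retinoid genes were sparse, with 3 of 19 measured. Rlbp1, the retinaldehyde-binding protein known from retinal glia, had 13 UMIs (258 CPM) in Irx3/5dHet and 25 UMIs (112 CPM) in WT wall tanycytes, a log2 ratio of 1.20 (0.11 to 2.22). Rbp4, the retinol carrier of blood, had 238 CPM in Irx3/5dHet and 251 CPM in WT wall tanycytes, against 49.9 and 46.2 CPM in eminence tanycytes.

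Of 7 Wnt pathway genes measured, 5 were above 0, as were 49.6% of all genes, and 2 below, with a median of 0.42, or 0.15 with median of ratios size factors, and 1 past 2-fold. Sfrp1 had 16 UMIs (317 CPM) in Irx3/5dHet and 31 UMIs (139 CPM) in WT wall tanycytes, a log2 ratio of 1.19 (0.22 to 2.11), and 24.96 and 10.3 CPM in eminence tanycytes. Wls, which is needed to secrete Wnt ligands, had 317 CPM in Irx3/5dHet and 237 CPM in WT members. Rspo3, a secreted amplifier of Wnt signals, had 99.1 and 71.7 CPM in wall tanycytes and 0 UMIs in eminence tanycytes of either library.

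Of 9 hypothalamic transcription factors measured, 8 were above 0, where 49.6% of all genes were, and 0 past 2-fold, with a median of 0.22, or -0.05 with median of ratios size factors. Lhx2, needed for tanycyte identity in mice, had 178 CPM in Irx3/5dHet and 112 CPM in WT wall tanycytes, Six3 396 and 381 CPM and Rorb 139 and 206 CPM. Six3 and Tbx3 were higher in eminence tanycytes, Tbx3 with 119 and 103 CPM in wall against 437 and 323 CPM in eminence tanycytes.

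Metabolic genes showed no common direction. Of 31 nuclear genes of oxidative phosphorylation 21 were above 0 and 10 below (median 0.23, or -0.04 with median of ratios size factors), with 1 past 2-fold. In all other used cells 31 of 32 were above 0 (median 0.32), as were 7062 of all 16445 genes there. Glucose and monocarboxylate genes had 2 of 6 above 0. Slc16a1, the lactate transporter MCT1, had 0 UMIs in Irx3/5dHet and 23 in WT members, and Ldha, lactate dehydrogenase A, 15 and 98 (-0.56). Apoe, the lipid carrier of glia, was among the most abundant transcripts, with 15878 CPM in Irx3/5dHet and 14738 CPM in WT wall tanycytes, against 7687 and 6918 CPM in eminence tanycytes. Scd2, which desaturates fatty acids, had 75 and 250 UMIs in wall tanycytes (0.41).

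Genes around Irx3 on chromosome 8 were read too thinly for a firm order. Fto, whose introns hold enhancers of Irx3, had 6 UMIs (119 CPM, 43.7 to 259) in Irx3/5dHet and 4 UMIs (17.9 CPM, 4.88 to 45.9) in WT wall tanycytes, and its neighbour Rpgrip1l, a gene of the ciliary transition zone, had 10 UMIs (198 CPM, 95.1 to 364.5) in Irx3/5dHet and 21 UMIs (94.04 CPM, 58.2 to 144) in WT members. Chd9 also stood higher in Irx3/5dHet, at 139 against 85.1 CPM. Aktip went slightly the other way, with 7 UMIs (139 CPM) in Irx3/5dHet and 34 UMIs (152 CPM) in WT members, as did Rbl2, with 1 and 5 UMIs. Of the 10 Iroquois and Fto locus genes, 3 had at least 20 UMIs, with 2 above 0 and 1 below, and Fto had fewer UMIs than that.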

How the data were processed

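The authors' deposited tables hold whole-number counts of UMIs per gene and cell barcode, 1 table per library. Values of the authors' merged table are the natural log of scaled counts, and it gave only an alternative set of barcodes. Per the submitters' processing notes, reads were handled with bcl2fastq, Picard and STAR 2.6.0b on mm10, and Seurat 3 is also listed. How reads shared by gene copies were counted, and on which annotation, is not stated in the sources used here, so values of pseudogenes and their parents are uncertain, and so are those of overlapping genes.

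Cells were filtered, chosen by the rule and summed per library with Python 3.11.15, numpy 2.4.6 and scipy 1.17.1, and figures drawn with matplotlib 3.10.9. Intervals are exact: Clopper-Pearson for shares, conditional binomial for ratios and Poisson for levels. A gene was measured with at least 20 UMIs and called past 2-fold. No p-value is given, because cells are not replicates. Sums over a set weight deep cells more, and the mean over cells was an alternative. The calculation was tested on simulated data.

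The members and all 35 gene lists were chosen with earlier results of these data known. Genes were named by size among called genes with at least 30 UMIs, UMIs in at least 10 members, at most 20% of them in 1 cell and an interval leaving out 0, up to 12 each way, besides the rule genes and examples of the lists; ribosomal protein, mitochondrial and sex-linked genes and genes with Gm, Rik, -ps or -rs names were left out. Coordinates are GRCm38 and promoters are from RefSeq. Some items are not reported here.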

Additional observations from a re-analysis of the deposited data

Results flagged for a closer look

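Several genes had a direction in wall tanycytes opposite to that in all other used cells, with both intervals leaving out 0. The difference itself was not tested, and with 1 library per genotype it has no replicate check. Values are log2 ratios of Irx3/5dHet over WT, wall tanycytes first.

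Higher in Irx3/5dHet wall tanycytes and lower in the other cells were the glial genes Slc1a2 (1.01 against -0.68), Gja1 (0.58 against -0.66), Mlc1 (0.56 against -0.44) and Cd63 (0.42 against -0.18). Dio2 (1.10 against -0.70), Rlbp1 (1.20 against -1.82), Rarres2 (1.37 against -0.47) and Scd2 (0.41 against -0.64) went the same way. The other cells were a mix, and the sets nearest in kind did not all go down. Mlc1 had 574 CPM in Irx3/5dHet and 328 CPM in WT eminence tanycytes, and 884 and 925 CPM in ependymal cells. Gja1 had 524 and 467 CPM, and 910 and 844 CPM, in the same order. Slc1a2 and Dio2 were lower in Irx3/5dHet than in WT eminence tanycytes. Dcn, a matrix proteoglycan gene of fibroblasts, had 4.89 against -0.07, but all 47 of its Irx3/5dHet UMIs lay in 1 cell, which also held other fibroblast markers.

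Lower in Irx3/5dHet wall tanycytes and higher in the other cells were Rgs2 (-2.90 against 0.52), Gtpbp4 (-2.94 against 0.24), Glyr1 (-2.71 against 0.22) and Hsp90ab1 (-0.31 against 0.15). The first 3 of these rest on 1 Irx3/5dHet UMI each. The level of Hsp90ab1, a cytosolic chaperone gene, rests on many more. Rgs2 was also lower in the sets nearest in kind. It had 0 Irx3/5dHet and 13 WT UMIs in eminence tanycytes, and 3 and 11 in ependymal cells (-0.67). Gtpbp4 had log2 ratios of -0.16 in eminence tanycytes and 1.79 in ependymal cells, and Glyr1 of 0.28 and 0.84.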

How the results depend on the processing

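The lower share of wall tanycytes in the Irx3/5dHet library held its direction under the 10 other settings tried, with ratios of 0.381 to 0.571. No paired analysis was possible because each genotype is 1 pooled library, and leaving out a replicate was not possible either.

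Counts of genes past 2-fold moved with the number of cells and the minimum count, since fewer genes were then tested or smaller counts let in. In Irx3/5dHet over WT wall tanycytes, higher and lower genes were 106 and 233 with at least 4 wall genes, 32 and 59 after thinning, 34 and 55 in another draw, 104 and 248 in members with under 6 ependymal markers, 27 and 80 with at least 50 UMIs, 525 and 1280 with at least 10, and 3029 and 7537 with no minimum. With median of ratios size factors there were 92 higher. Over eminence tanycytes, wall tanycytes had 18 higher and 27 lower genes with at least 50 UMIs, 11 and 24 after thinning, 14 and 24 in another draw, and 35 higher in members with under 6 ependymal markers. Over all cells with at least 3 ependymal markers the 66 higher and 222 lower genes became 33 and 61 with at least 50 UMIs, 10 and 70 after thinning, and 12 and 76 in another draw.

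Of 135 list medians recomputed, 132 moved by less than the counting error of a typical member. The others were the mitochondrially encoded genes after thinning (0.59, and 0.46 in another draw, against 0.03) and glucose and monocarboxylate genes in another draw (0.66 against -0.19), and the cause was not tested. Of the named genes, Prkcdbp turned to 0.13 with at least 2 wall genes, which adds cells, and B9d1 (0.74, same setting) and Elmod1 (0.59, at least 4 wall genes) left their intervals. The genotype comparison rests on 50448 UMIs of 30 Irx3/5dHet cells.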

Other observations

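Wall tanycytes also held transcripts not described above. Mt3, a metallothionein gene of the brain, had 199 UMIs in Irx3/5dHet and 635 in WT members, a log2 ratio of 0.47, and Mt1 had 2934 and 3014 CPM. Fgf10 had 9 UMIs (178 CPM) in Irx3/5dHet and 56 UMIs (251 CPM) in WT members, and Penk 7 UMIs (139 CPM) and 23 UMIs (103 CPM), neither of them past 2-fold. Nes, the intermediate filament nestin, had 3 UMIs in Irx3/5dHet and 28 in WT members. Tgfb2, a ligand of the TGF-beta family, had 2 and 30 UMIs, and Cd59a, a complement regulator, 6 and 58. The interferon and MHC list had a median of 0.03 over 7 measured genes and the 4 cell cycle genes measured a median of 0.10.

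Of 12 neuron markers, 2 had at least 20 UMIs in wall tanycytes, and both were below 0. Meg3, a long noncoding RNA of neurons, had 30 UMIs in Irx3/5dHet and 396 in WT members (-1.58), and Snhg11 had 7 and 49 (-0.66). Among those under 20 UMIs, Stmn2 was higher in Irx3/5dHet, with 9 UMIs (178 CPM) against 4 (17.9 CPM) in WT, while Elavl4 had 0 and 4 UMIs. No direction is therefore given for neuron markers in wall tanycytes. All 12 had a log2 ratio above 0 in all other used cells (median 0.45), as did 7062 of all 16445 genes there. The hypothalamic peptide genes Agrp, Npy and Pomc had 1, 1 and 2 UMIs in Irx3/5dHet and 2, 2 and 4 in WT wall tanycytes, and Ttr had 0 in both.

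By a UMI of Cd59a, Vcan or Slc17a8 as alpha genes, or of Penk or Fgf10 as beta1 genes, none of them a rule gene, 6 Irx3/5dHet and 26 WT members had alpha genes alone, 7 and 19 beta1 genes alone, 3 and 21 both, and 14 and 38 neither. Slc1a2 had 65 UMIs in the alpha and 22 in the beta1 cells (log2 ratio alpha over beta1 1.52, 0.80 to 2.29), and Hes1 had 72 and 145 (-1.05, -1.48 to -0.63).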
